A study of Mus musculus with 10 samples.

Results

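The 31 genes described here encode acute phase proteins, the plasma proteins whose synthesis in the liver changes with inflammation or injury, together with a few receptors that act in the same response. They were taken by symbol from a list, and all 31 were found among the 23056 genes of the count table. They were read in 4 livers of mice labelled as Ifrd1 knockouts (KO) and in 6 livers of wild-type (WT) mice. Both groups had undergone partial hepatectomy, the surgical removal of the left lateral and median lobes, 12 hours before, so the contrast is genotype in a regenerating liver. No unoperated liver was analysed here. The labels do not give strain, age, sex, the allele or the cells that lack Ifrd1. Ifrd1 encodes a transcriptional co-regulator, and the aim stated for the series is to learn what it does in regeneration.

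Acute phase genes are switched on in hepatocytes mainly by cytokines from macrophages. Interleukin-1 and tumour necrosis factor act through NF-kB and C/EBP factors and drive the IL-1-type genes such as the serum amyloids A, usually together with interleukin-6. Interleukin-6 alone acts through the receptor subunit gp130 and STAT3 and drives the IL-6-type genes such as the fibrinogen chains, and glucocorticoids enhance both. Other plasma protein genes respond weakly or are lowered. After partial hepatectomy the same cytokines prime hepatocytes to divide, so acute phase transcripts are high in regenerating liver. From this general knowledge 11 members were put in the IL-1-type class, 13 in the IL-6-type class and 7 in a class of negative or weak responders. Several genes, haptoglobin and hemopexin among them, answer to both cytokines, so the classes are approximate.

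The promoters of 7 members are shown, because these genes sit beside close relatives or partners that are compared with each other in the results. Saa1 and Saa2 stand head to head on chromosome 7, Orm2 and Orm3 are neighbours on chromosome 4, and Fgg, Fga and Fgb lie side by side on chromosome 3. Each window runs from 250 bases before to 50 after the start site (RefSeq, build GRCm38.p6), 5′ to 3′ on the strand of the gene. The windows are chr7:46742931-46743230 (minus strand) for Saa1, chr7:46751583-46751882 (plus) for Saa2, chr4:63362199-63362498 (plus) for Orm2, chr4:63355908-63356207 (plus) for Orm3, chr3:83025903-83026202 (plus) for Fga, chr3:83049814-83050113 (minus) for Fgb and chr3:83007474-83007773 (plus) for Fgg. Capitals mark matches, on either strand, to a STAT element (TTCNNNGAA), an IL-6 response element (CTGGGAA), a C/EBP element (TTNNGNAAT) or the kappaB consensus.
Saa1: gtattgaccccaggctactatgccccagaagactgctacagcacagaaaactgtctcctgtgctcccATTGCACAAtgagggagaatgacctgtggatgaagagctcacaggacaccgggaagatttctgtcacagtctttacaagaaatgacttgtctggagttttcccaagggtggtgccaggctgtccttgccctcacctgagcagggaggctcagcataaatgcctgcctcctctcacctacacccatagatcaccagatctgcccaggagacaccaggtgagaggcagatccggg
Saa2: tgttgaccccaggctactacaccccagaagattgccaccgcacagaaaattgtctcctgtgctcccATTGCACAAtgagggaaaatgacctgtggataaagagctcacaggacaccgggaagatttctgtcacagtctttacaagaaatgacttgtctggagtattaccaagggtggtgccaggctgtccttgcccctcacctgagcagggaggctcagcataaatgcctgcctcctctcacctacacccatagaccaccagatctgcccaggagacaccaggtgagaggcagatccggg
Orm2: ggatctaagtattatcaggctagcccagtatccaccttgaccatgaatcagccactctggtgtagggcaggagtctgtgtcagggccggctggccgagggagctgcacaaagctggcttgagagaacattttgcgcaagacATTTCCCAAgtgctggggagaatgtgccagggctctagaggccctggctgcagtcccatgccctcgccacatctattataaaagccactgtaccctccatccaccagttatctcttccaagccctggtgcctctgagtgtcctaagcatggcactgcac
Orm3: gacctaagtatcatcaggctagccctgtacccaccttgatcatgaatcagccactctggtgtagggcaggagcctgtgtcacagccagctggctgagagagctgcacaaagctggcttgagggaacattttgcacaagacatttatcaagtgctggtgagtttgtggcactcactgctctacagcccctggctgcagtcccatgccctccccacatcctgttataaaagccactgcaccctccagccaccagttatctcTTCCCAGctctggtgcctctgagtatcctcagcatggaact
Fga: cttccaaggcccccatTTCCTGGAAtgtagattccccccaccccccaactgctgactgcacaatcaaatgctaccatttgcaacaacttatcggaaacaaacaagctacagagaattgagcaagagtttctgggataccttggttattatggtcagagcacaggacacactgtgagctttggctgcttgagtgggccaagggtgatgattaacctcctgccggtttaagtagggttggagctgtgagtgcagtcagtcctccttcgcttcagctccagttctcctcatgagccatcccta
Fgb: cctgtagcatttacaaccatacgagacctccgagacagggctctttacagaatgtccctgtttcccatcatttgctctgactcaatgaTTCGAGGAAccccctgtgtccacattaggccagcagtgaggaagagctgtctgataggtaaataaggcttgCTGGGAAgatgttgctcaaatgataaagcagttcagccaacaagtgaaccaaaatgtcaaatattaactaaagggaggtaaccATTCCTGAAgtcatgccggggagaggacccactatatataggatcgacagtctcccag
Fgg: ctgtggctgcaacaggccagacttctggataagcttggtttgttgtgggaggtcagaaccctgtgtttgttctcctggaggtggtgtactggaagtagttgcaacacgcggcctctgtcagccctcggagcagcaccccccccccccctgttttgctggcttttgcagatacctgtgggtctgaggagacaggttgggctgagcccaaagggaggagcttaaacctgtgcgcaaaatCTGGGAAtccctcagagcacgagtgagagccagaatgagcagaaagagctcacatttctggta

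In these windows Saa1 and Saa2 were alike in 287 of 299 aligned bases (96.0%), and each held a C/EBP match, first base 183 and 184 bases before the start site. Orm2 and Orm3 were alike in 264 of 295 aligned bases (89.5%), but Orm2 held a C/EBP match and Orm3 an IL-6 response element match just after its start site. Fgb held a STAT, an IL-6 response and a C/EBP match, Fga a STAT match and Fgg an IL-6 response match. Promoter windows were found for 25 of the 31 members, 29 windows in all. A STAT match lay in 20.7% of them and in 8.3% of all 32851 mouse windows, an IL-6 response match in 9 of 29 (31%) and 11.1%, a C/EBP match in 41.4% and 11.5%, and a kappaB match in 6.9% and 8.46%. Some genes have several windows, and overlapping windows of Il1rn hold the same matches. Counted by gene, 6 of the 25 members held a STAT, 7 an IL-6 response, 10 a C/EBP and 2 a kappaB match. In 1 window, of Il1r1, a kappaB and a C/EBP match shared 5 bases, and no other matches overlapped. These are matches of letters and not binding sites.

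Libraries held 12307446 to 17098012 counts. Levels are given in CPM, read counts scaled to a common library size. Ifrd1 itself was at 13, 22.6, 20.8 and 21.6 CPM in the KO livers and between 40.2 and 81.7 CPM in the WT livers, without overlap (log2 fold change -1.59, SE 0.23, edgeR adjusted p = 0.0258; its adjusted p ran from 0.00104 to 0.132 with 1 library left out). WT replicate 4, whose Ifrd1 level of 49.6 CPM was in the WT range, lay nearer the KO mean than that of the 5 remaining WT livers for 69.5% of all genes. WT replicates 5 and 6 were both below the remaining 8 libraries for 7.66% of all genes. Values without these libraries are given where they change what is described. WT replicate 4 was singled out for its nearness to KO, so a fit without it favours a difference and does not test one. The labels do not name the animals, so the spread that the tests use is that of the libraries and may be technical. The summed level of 12 hepatocyte markers was 57329 to 67329 CPM in KO and 44286 to 88411 CPM in WT livers, so the tissue label holds. In bulk RNA, fewer cells of a type and less RNA per cell cannot be told apart.

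Acute phase transcripts took a like share of the counts in both genotypes. The 31 genes together took 14.062%, 10.508%, 10.003% and 11.022% of all counts in the KO livers, against 12.968%, 11.522%, 15.036%, 10.437%, 8.516% and 8.137% in WT replicates 1 to 6. The groups overlapped fully, with a KO mean of 11.4% ± 1.82 and a WT mean of 11.1% ± 2.65 (SD, n = 4 and 6, two-sided exact permutation p = 0.857), and the difference changed sign without KO replicate 1 (-0.59 percentage points), WT replicate 5 (-0.22) or WT replicate 6 (-0.30). Mitochondrial transcripts took 16.5% to 30.5% of counts in KO and 14.5% to 28.9% in WT. Counted outside them, the share was 14.6% ± 1.54 in KO and 14.03% ± 2.55 in WT (exact permutation p = 0.69). Per transcript length, the highest levels in KO livers were those of Saa2 at 25842 ± 5924 TPM, haptoglobin (Hp) at 21206 ± 2729 TPM, Saa1 at 21098 ± 6564 TPM and hemopexin (Hpx) at 12329 ± 1768 TPM (CPM divided by transcript length and rescaled to a fixed total; SD, n = 4). In WT livers the same genes were at 24506 ± 7834, 15025 ± 4306, 20788 ± 6506 and 8530 ± 3085 TPM (SD, n = 6). Within the KO group the mean ± SD ranges of Saa2, Hp and Saa1 overlapped, but these SDs are between libraries. Within each KO library Saa2 was above Saa1, at log2 ratios of CPM from 0.28 to 0.57, not corrected for length. The order of these genes was not tested. At the low end in KO livers stood Il1rn (0.915 ± 0.21 TPM) and the receptor gene Cd14 (4.79 ± 2.64 TPM). In WT livers Il1rn was again lowest (1.62 ± 1.09 TPM). Cd14 averaged 136 ± 199 TPM there, above several members such as Il1rap (24.3 ± 5.94 TPM).

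No member passed the test between genotypes. Of the 31, edgeR's quasi-likelihood test called 0 higher and 0 lower in KO at an adjusted p below 0.05. Of the 13688 genes tested, 0.563% were called higher and 0.767% lower, 1.33% in all. That total of 182 genes was 0 without KO replicate 1, 2 or 3, 2 without KO replicate 4, WT replicate 1 or WT replicate 5, 10 without WT replicate 3, 20 without WT replicate 6, 55 without WT replicate 2 and 2893 without WT replicate 4. The smallest adjusted p among members was 0.065, for Orm3. At an unadjusted p under 0.05 there were 9 members (29.0%, against 26% of all genes), 3 higher (11.6% of all genes) and 6 lower in KO (14.4% of all genes). DESeq2 called 5 members lower in KO (16.1%, against 7.59% of all genes) and 0 higher (4.23% of all genes), and limma-voom called 0. By DESeq2, 11.8% of all genes were called. The KO and WT libraries did not overlap for 3 members (9.68%), where 6.9% of all genes did not. KO lay above WT for Itih1 and Il1rap (3.61% of all genes) and below for Cd14 (3.29% of all genes). Apart from the members called lower by DESeq2, these shares are near those of all genes.

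**Figure D1:**
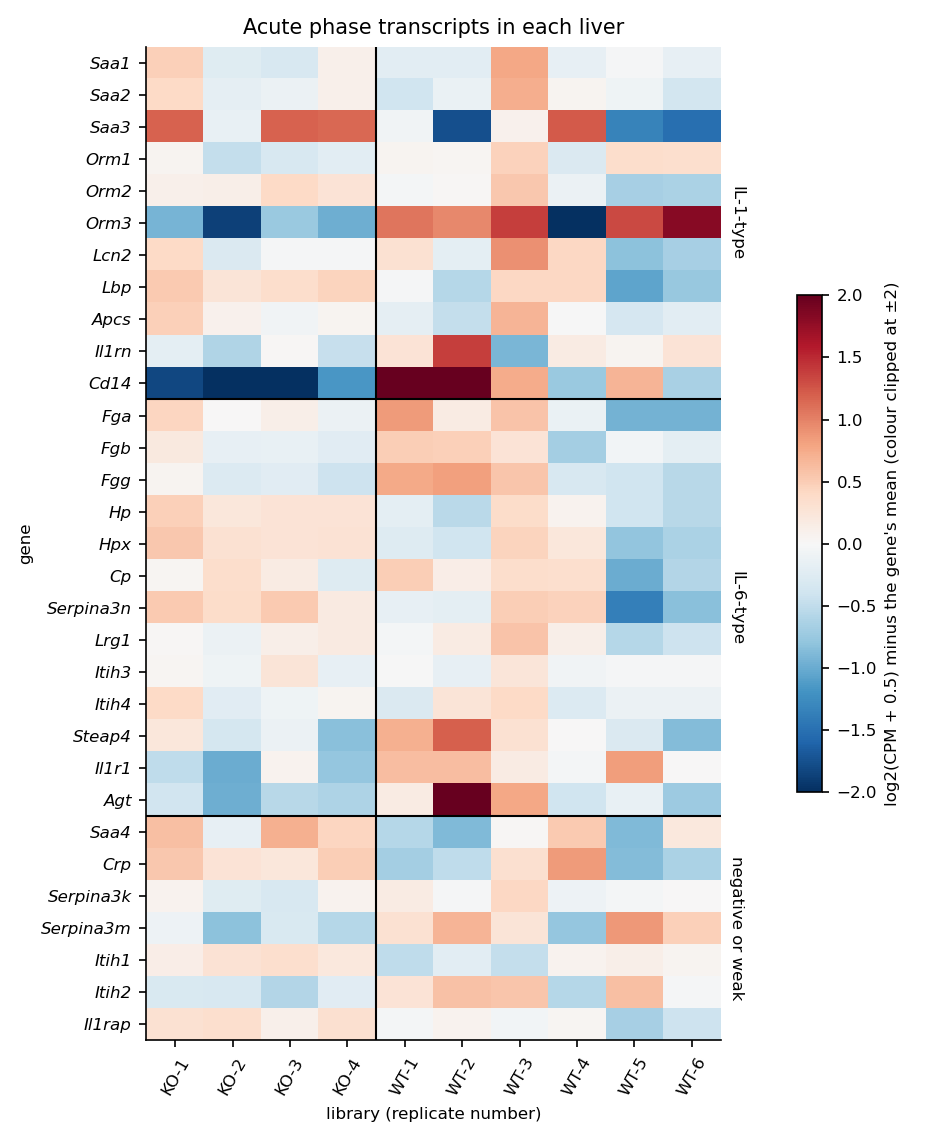
Level of each of the 31 genes (rows) in each library (columns, KO left of the line and WT right of it) as log2(CPM + 0.5), centred on the row's own mean and clipped at ±2. The KO columns are mostly pale, Cd14 and Orm3 are low in KO, and the WT columns differ, with many low values in WT replicates 5 and 6.

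The 3 classes gave different medians, all small. The IL-1-type members had a median log2 fold change of -0.01, with 5 of 11 above 0. The IL-6-type members had a median of 0.03, with 8 of 13 above 0, and the negative or weak responders one of 0.38, with 4 of 7 above 0. Over all genes tested the median was -0.02. Sizes within a class were far wider than the gaps between classes, since log2 fold changes ran from -4.77 to 1.10 in the IL-1-type class, from -1.67 to 0.53 in the IL-6-type class and from -0.81 to 0.59 among the negative or weak responders. In 11 of 31 members the log2 fold change was under 0.2 in size (35.5%, against 33.7% of all genes). The median of the negative or weak class was 0.26 without WT replicates 5 and 6.

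**Figure D2:**
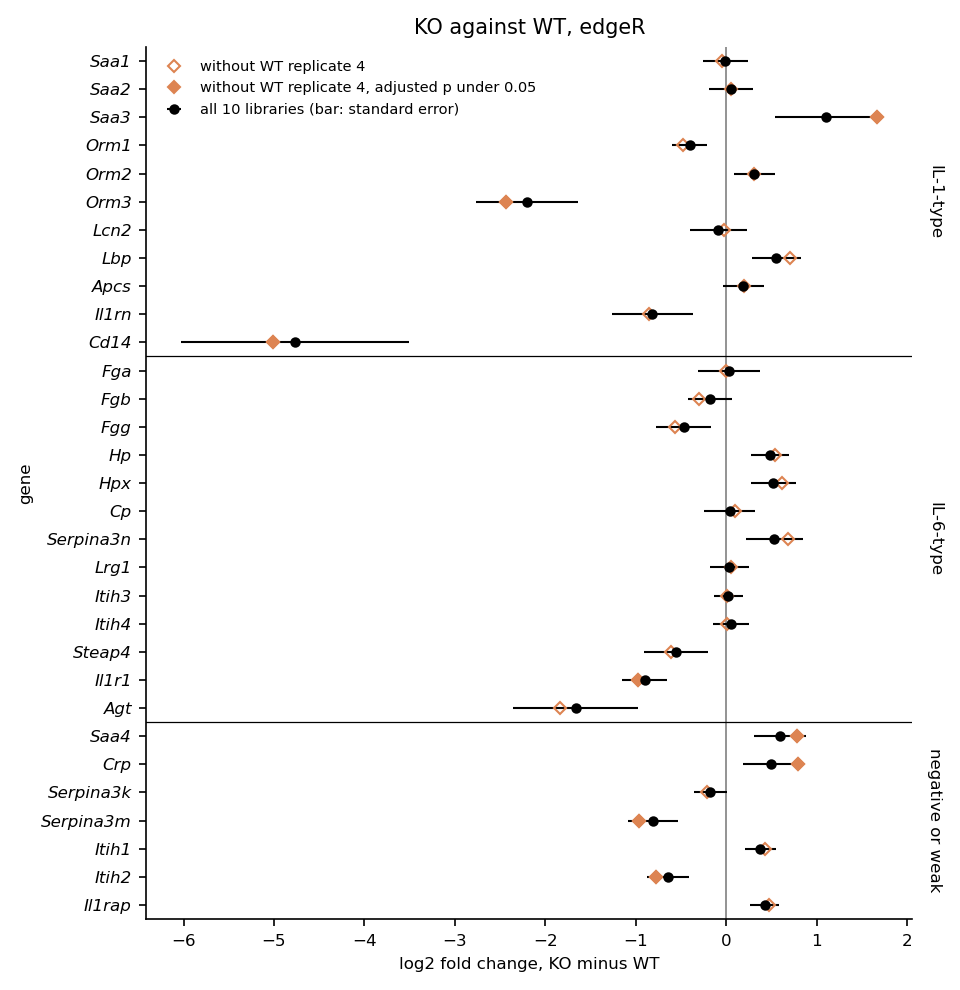
Log2 fold change, KO minus WT, of each gene by class with all 10 libraries (black points, bars show the standard error) and without WT replicate 4 (orange diamonds, filled where the adjusted p was under 0.05). Points of all 3 classes lie on both sides of 0, and the 8 filled diamonds belong to Saa3, Orm3, Cd14, Il1r1, Saa4, Crp, Serpina3m and Itih2.

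Among IL-1-type genes, the major serum amyloids A, lipoprotein-bound proteins of the early acute phase, had nearly the same mean in both genotypes. Saa1 was at 11089, 6708, 6384 and 8518 CPM in the KO livers, against 6889 at the lowest, 7093 at the median and 13586 CPM at the highest in the WT livers. Its log2 fold change was -0.01 (SE 0.25, edgeR adjusted p = 0.984), and leaving out 1 library moved it between -0.19 and 0.19. Saa2 was at 13460.1, 9068, 9493 and 11000.2 CPM in KO, against 7799, 9465 and 16997 CPM (lowest, median and highest) in WT, with a log2 fold change of 0.05 (SE 0.24, edgeR adjusted p = 0.919). For both genes the highest library was WT replicate 3 and the next was KO replicate 1, and the groups overlapped. The transcripts of Saa1 and Saa2 are alike in 94.4% of aligned bases, so reads could have been moved between them. Summed with each other before the fit, they had a log2 fold change of 0.02.

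Saa3, an amyloid A made by macrophages and other cells beside hepatocytes, was low by comparison and uneven. It was at 59.5, 23.3, 59.5 and 57.7 CPM in the KO livers. In the WT livers it was at 24.7, 7.33, 27.7, 61.1, 9.93 and 8.74 CPM in replicates 1 to 6. Thus 3 of 4 KO libraries and WT replicate 4 were near 60 CPM and every other library was at or under 27.7 CPM. The log2 fold change was 1.10 (SE 0.56, edgeR adjusted p = 0.236), and without WT replicate 4 it was 1.67 (edgeR adjusted p = 0.0249).

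The orosomucoids, or alpha-1-acid glycoproteins, carry drugs and lipids in plasma, and their 3 genes had log2 fold changes of either sign. Orm1, the abundant one, was at 5514, 3805, 4250.2 and 4601 CPM in KO, against 4358, 6088 and 7332 CPM (lowest, median and highest) in WT. It had a log2 fold change of -0.41 (SE 0.20, edgeR adjusted p = 0.215). Orm2 was at 241, 245, 297 and 272 CPM in KO, against 142, 215 and 327 CPM (lowest, median and highest) in WT, and its log2 fold change was 0.31 (SE 0.22, edgeR adjusted p = 0.391). The KO values of Orm2 lay inside the WT range, and KO replicates 2 and 3 lay below the lowest WT value for Orm1.

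Orm3, the third gene, was the member with the smallest p. It was at 20.1, 10.3, 23.1 and 19.5 CPM in KO. WT replicates 1, 2, 3, 5 and 6 were at 82.4, 75.9, 101.8, 98.2 and 139 CPM, and WT replicate 4 was at 9.12 CPM. The groups overlapped through that single library, the lowest of all 10. The log2 fold change was -2.21 (SE 0.56, edgeR adjusted p = 0.065). Without WT replicate 4 it was -2.44 with an edgeR adjusted p of 1.72e-04, against 99.5 ± 24.6 CPM in the other 5 WT livers. The transcripts of Orm1, Orm2 and Orm3 are alike in 87.5% to 91.0% of aligned bases. Because Orm1 is so much more abundant, a small share of misplaced Orm1 reads could alter Orm3 counts, and how multimapping reads were treated is not given in the sources used here.

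The genes of other secreted IL-1-type proteins overlapped between genotypes. Lcn2, which encodes the iron-siderophore-binding lipocalin-2, was at 3554, 2222, 2659 and 2655 CPM in KO, against 1536, 2848 and 5112 CPM (lowest, median and highest) in WT (log2 fold change -0.09, SE 0.32). Apcs, serum amyloid P, the mouse's main pentraxin of the acute phase, averaged 973 ± 166 CPM in KO and 854 ± 279 CPM in WT (log2 fold change 0.19, SE 0.23). Lbp, the lipopolysaccharide-binding protein that hands endotoxin to CD14, was at 110.0, 91.1, 97.1 and 104 CPM in KO. In WT it was at 36.5, 62.9 and 102 CPM (lowest, median and highest), where replicates 3 and 4 (101.4 and 102.2 CPM) lay within the KO range and the other 4 below it (log2 fold change 0.55, SE 0.28, edgeR adjusted p = 0.222).

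Cd14, the co-receptor that binds endotoxin with LBP and is found on macrophages and, when induced, on hepatocytes, had the largest log2 fold change in size of the 31 members. It was at 5.30, 2.23, 3.92 and 8.71 CPM in KO, against 217, 522, 33.7, 11.8, 32.5 and 12.7 CPM in WT replicates 1 to 6. The groups did not overlap, though WT replicates 4 and 6 were within a few CPM of KO replicate 4. The log2 fold change was -4.77 (SE 1.26, edgeR adjusted p = 0.0678), and without WT replicate 2 it was -3.60 (edgeR adjusted p = 0.0874). Sums of neutrophil and of monocyte and macrophage markers were highest in WT replicate 2, the library with the highest Cd14. WT replicate 1, with the next highest Cd14, was next highest for the neutrophil sum only. The sum of 14 neutrophil markers was 203 CPM in WT replicate 2 and 41.8 CPM in WT replicate 1, 7.38 to 18.03 CPM in KO and 11.2 to 27.02 CPM in the other WT livers. The sum of 14 monocyte and macrophage markers was 201 CPM in WT replicate 2, 43.3 to 55.9 CPM in KO and 48.01 to 71.5 CPM in the other WT livers. The neutrophil gene Mpo was at 0 in every library but WT replicate 2, and Ly6g was at most 0.681 CPM. Of the 6 tested Kupffer cell markers, 5 had log2 fold changes below 0, none past the threshold (median -0.88). Clec4f was at 9.05 to 23.8 CPM in KO and at 10.2 to 107 CPM in WT. Vsig4 was at 2.26 to 4.99 CPM in KO and 3.27 to 18.3 CPM in WT. Clec4f, Vsig4 and Timd4 were highest in WT replicate 2. Marco and Cd5l were highest in WT replicate 6 instead, with Marco at 47.5 CPM there and 38.5 CPM in WT replicate 2. C6 was lowest in WT replicate 2, at 76.6 CPM. The list's sum outside C6, a complement gene also made by hepatocytes and most of the total, was 28.9 to 58.9 CPM in KO and 33.96 to 196.5 CPM in WT, with replicate 2 highest. In WT replicate 1, Cd14 was at 217 CPM with a monocyte and macrophage sum of 60.8 CPM and a Kupffer sum outside C6 of 70.7 CPM. That Kupffer sum was higher in WT replicates 5 and 6 (110.1 and 135.0 CPM), where Cd14 was at 32.5 and 12.7 CPM. The part of these cells in the Cd14 difference was not tested. Il1rn, the interleukin-1 receptor antagonist, averaged 1.46 ± 0.38 CPM in KO and 2.58 ± 1.67 CPM in WT, with its highest value, 5.75 CPM, also in WT replicate 2 (log2 fold change -0.81, SE 0.45, edgeR adjusted p = 0.273).

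**Figure D3:**
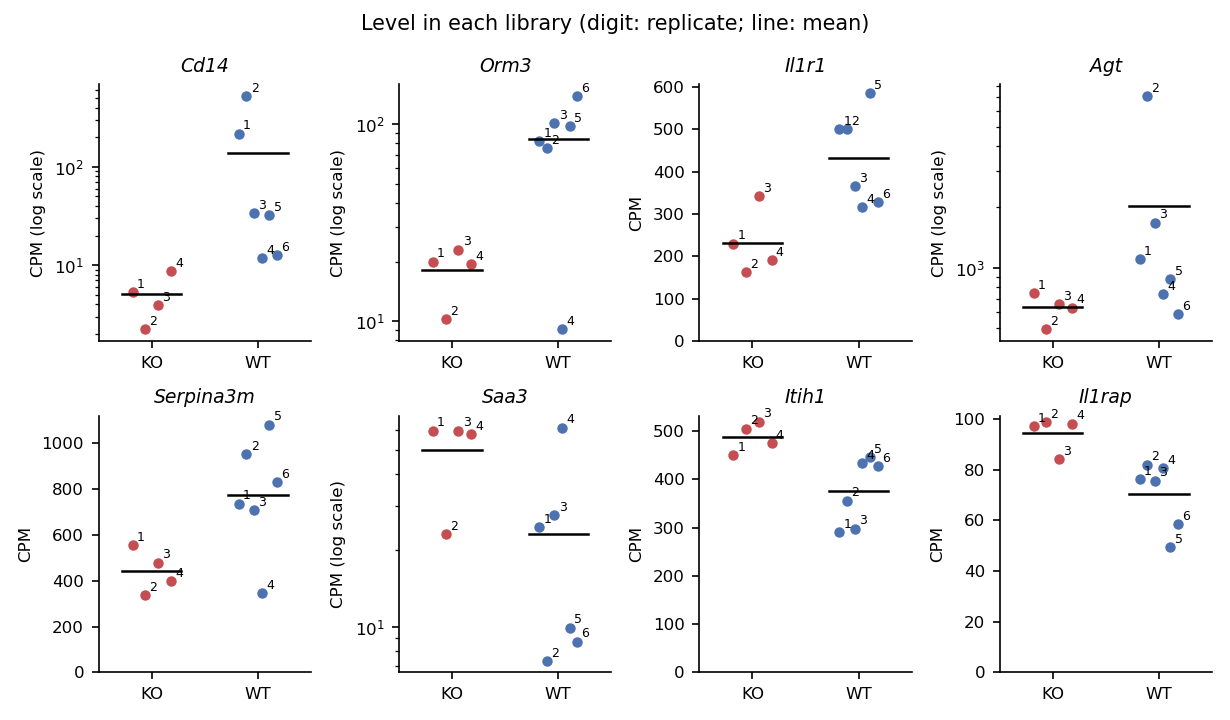
CPM of 8 genes in each library, KO left and WT right, with the replicate number beside each point and a line at the group mean; axes of Cd14, Orm3, Agt and Saa3 are log scales. WT replicate 4 lies at or near KO levels for Orm3, Serpina3m and Saa3, WT replicate 2 is highest for Cd14 and Agt, and the KO points lie above all WT points for Itih1 and Il1rap.

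Among IL-6-type genes, the fibrinogen chains, which are joined into the clotting protein in fixed proportion, did not pass between genotypes. Their log2 fold changes ran from 0.03 for Fga to -0.47 for Fgg. Fga was at 11388, 8548, 9146 and 7774 CPM in KO, against 4403, 8629 and 15317 CPM (lowest, median and highest) in WT. Its log2 fold change was 0.03 (SE 0.34). Fgb was at 13451, 10491, 10590.4 and 10056 CPM in KO, against 7349, 12725 and 16558 CPM in WT (log2 fold change -0.18, SE 0.24). Fgg was at 8291, 6588, 6827 and 5976 CPM in KO, against 5431, 9077 and 14171 CPM in WT (log2 fold change -0.47, SE 0.30, edgeR adjusted p = 0.346). The KO livers spanned 1.34-fold to 1.46-fold in these genes and the WT livers 2.25-fold to 3.48-fold. A span tends to widen with the number of livers, here 4 KO and 6 WT. The SD of log2 level was 0.19 to 0.23 in KO and 0.45 to 0.75 in WT. It was larger in WT for 80.3% of all genes as well.

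Ratios within a library hardly depend on its scaling, and the fibrinogen ratios differed more among WT livers than between the genotype means. The log2 ratio of Fgg to Fgb was -0.70, -0.67, -0.63 and -0.75 in KO. It was -0.29, -0.20, -0.27 and -0.20 in WT replicates 1 to 4 and -0.89 and -0.91 in WT replicates 5 and 6, so the KO livers lay between 2 levels seen in WT. The log2 ratio of Fga to Fgb averaged -0.28 ± 0.07 in KO and -0.59 ± 0.61 in WT, where it ran from -1.36 to 0.07. Saa2 to Saa1 was steady at 0.41 ± 0.12 in KO and 0.33 ± 0.16 in WT. Orm2 to Orm1 was -4.10 ± 0.30 in KO and -4.86 ± 0.54 in WT, and Saa3 to Saa1 -7.40 ± 0.59 in KO and -8.80 ± 1.14 in WT (all SD, n = 4 and 6). In two-sided exact permutation tests over libraries, whose smallest possible p is 0.00476, none of the 5 ratios differed after Benjamini-Hochberg adjustment. The adjusted p was 0.179 for Orm2 to Orm1 (unadjusted 0.0476) and for Saa3 to Saa1 (0.0714), 0.357 for Fgg to Fgb and 0.390 for the others.

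**Figure D4:**
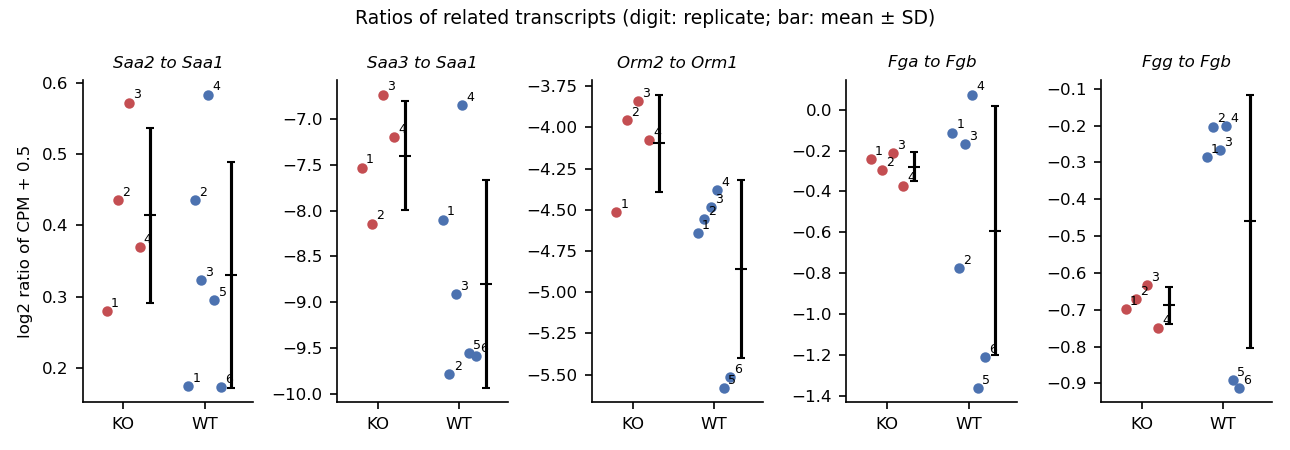
Log2 ratios of related transcripts (CPM + 0.5) in each library, KO left and WT right, with replicate numbers and mean ± SD. For Fgg to Fgb the 4 KO points lie between WT replicates 1 to 4, near -0.2, and WT replicates 5 and 6, near -0.9.

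Haptoglobin and hemopexin, which bind free haemoglobin and haem, had higher KO means without passing. Hp was at 20508, 17144, 17659 and 17728 CPM in KO, against 10034, 11985 and 18917 CPM (lowest, median and highest) in WT. Only WT replicate 3 reached the KO range, and the log2 fold change was 0.48 (SE 0.21, edgeR adjusted p = 0.177). Hpx was at 13459, 11425, 11114 and 11287 CPM in KO, against 5339, 7368 and 12574 CPM in WT, and again replicate 3 alone lay in the KO range (log2 fold change 0.52, SE 0.25, edgeR adjusted p = 0.206). Serpina3n, a protease inhibitor related to antichymotrypsin, was at 3752, 3393, 3768 and 2975 CPM in KO, against 1012, 2322 and 3661 CPM in WT (log2 fold change 0.53, SE 0.32, edgeR adjusted p = 0.303). The copper carrier ceruloplasmin (Cp), the leucine-rich glycoprotein Lrg1 and the inter-alpha-inhibitor heavy chains Itih3 and Itih4 had log2 fold changes between 0.02 and 0.05, with SEs from 0.16 to 0.28.

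Besides Fgb and Fgg, the IL-6-type members with lower KO means were a receptor, a metalloreductase and a hormone precursor. Il1r1, the signalling receptor for interleukin-1, was at 230, 163, 343 and 190.3 CPM in KO, against 317, 432 and 584 CPM (lowest, median and highest) in WT. KO replicate 3 alone reached into the WT range, and the log2 fold change was -0.90 (SE 0.25, edgeR adjusted p = 0.0705). Agt, angiotensinogen, was at 750.1, 494, 662 and 633 CPM in KO and at 1098, 7100, 1672, 740, 880 and 588 CPM in WT replicates 1 to 6. A single liver, WT replicate 2, was 12.1-fold above the lowest WT liver. The log2 fold change was -1.67 (SE 0.69, edgeR adjusted p = 0.159) and -0.65 without that library (edgeR adjusted p = 0.203). Steap4, a metalloreductase induced by inflammation, averaged 105 ± 31.1 CPM in KO and 154 ± 77.3 CPM in WT (log2 fold change -0.56, SE 0.35).

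The negative or weak responders held both directions. Il1rap, the accessory chain that pairs with the interleukin-1 receptor, was at 97.4, 98.8, 84.2 and 98.3 CPM in KO, against 49.5, 76.0 and 82.0 CPM (lowest, median and highest) in WT. Its groups did not overlap, although KO replicate 3 was only just above the highest WT library (log2 fold change 0.43, SE 0.16, edgeR adjusted p = 0.132). Itih1, a heavy chain of inter-alpha-inhibitor, was at 450.4, 505, 519.9 and 476 CPM in KO, against 292, 392 and 447 CPM in WT, again without overlap by a narrow margin (log2 fold change 0.38, SE 0.17, edgeR adjusted p = 0.182). Its partner chain Itih2 lay the other way. It was at 874, 859, 718 and 923 CPM in KO, against 728, 1443 and 1635 CPM in WT, with WT replicate 4 at the WT minimum (log2 fold change -0.65, SE 0.23, edgeR adjusted p = 0.116). The receptor pair of interleukin-1 thus had opposite signs, with Il1r1 lower and Il1rap higher in KO means, and the inhibitor chains Itih1 and Itih2 did as well, none of the 4 past the threshold.

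Saa4, the constitutive amyloid A, averaged 146 ± 35.1 CPM in KO and 96.5 ± 39.8 CPM in WT (log2 fold change 0.59, SE 0.29, edgeR adjusted p = 0.216). Crp, C-reactive protein, which is only a weak acute phase gene in mice, was at 215, 179, 174 and 208 CPM in KO, against 80.5, 99.6 and 267 CPM in WT, where replicate 4 was the highest of all 10 libraries (log2 fold change 0.50, SE 0.32, edgeR adjusted p = 0.336). The abundant protease inhibitor gene Serpina3k averaged 12508 ± 1789 CPM in KO and 14129 ± 2019 CPM in WT (log2 fold change -0.18, SE 0.18). Its relative Serpina3m was at 555, 337, 479 and 398 CPM in KO, against 345, 783 and 1080.4 CPM in WT, with WT replicate 4 lowest (log2 fold change -0.81, SE 0.28, edgeR adjusted p = 0.106). The transcripts of these 2 are alike in 91.3% of aligned bases and their annotated genes start at the same base of chromosome 12 (104338486), so their counts are uncertain.

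Leaving out WT replicate 4, 8 members passed in edgeR (25.8%), where 21.4% of 13514 genes did. This library was singled out because it lay nearer the KO mean for most genes. Leaving it out therefore widens the contrast by that choice, and these calls are no independent support for a difference. Saa3, Saa4 and Crp were called higher in KO (9.68%, against 10.5% of all genes). Orm3, Cd14, Il1r1, Serpina3m and Itih2 were called lower (16.1%, against 10.9% of all genes). Log2 fold changes in this fit were 1.67, 0.79 and 0.80 for the first group and -2.44, -5.01, -0.98, -0.96 and -0.77 for the second. Their adjusted p lay between 1.72e-04 for Orm3 and 0.0478 for Saa4. The 5 called lower are those that DESeq2 called with all libraries. Of the 31 members, 23 had a WT replicate 4 level nearer the KO mean than that of the remaining WT livers (74.2%, against 69.5% of all genes). It was so for all 7 negative or weak responders.

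Spread between livers was larger in WT than in KO for 28 of 31 members (90.3%), as for 80.3% of all genes. The median SD of log2 level was 0.23 in KO and 0.49 in WT for the members, and 0.23 in KO and 0.39 in WT for all genes. WT replicate 3 had the highest WT level in 13 members (41.9%, against 10.1% of all genes), among them Saa1, Saa2, Apcs, Lcn2, Hp and Hpx. WT replicates 5 and 6 were both below every other library in 9 members, Orm2, Lcn2, Lbp, Fga, Hpx, Cp, Serpina3n, Lrg1 and Il1rap (29.0%, against 7.66% of all genes). These 9 genes were picked because those livers were lowest, so leaving the livers out lowers each log2 fold change by that choice. Without these livers the log2 fold changes were 0.09 for Orm2, -0.38 for Lcn2, 0.29 for Lbp, -0.30 for Fga and 0.31 for Hpx. They were -0.25 for Cp, 0.22 for Serpina3n, -0.17 for Lrg1 and 0.26 for Il1rap, and none of the 9 passed in edgeR (smallest adjusted p = 0.243, for Il1rap). With all libraries, Serpina3n was at 1012 and 1462 CPM in these livers and at 2297 CPM or more in the other 8. Among KO livers, replicate 1 had the highest level in 18 members (58.1%, against 20.9% of all genes). KO replicate 2 had the lowest KO level in 15 members (48.4%, against 23.0% of all genes), 8 of them among the 11 IL-1-type members. These patterns were chosen after the values were seen and were not tested.

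**Figure D5:**
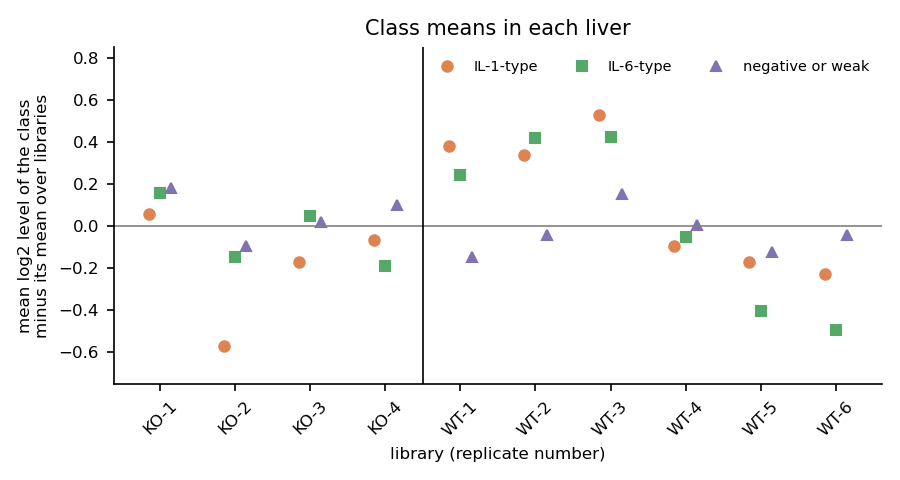
Mean log2 level of each class in each library minus its mean over the 10 libraries, KO left of the line and WT right of it. IL-1-type and IL-6-type means are highest in WT replicates 1 to 3. The IL-1-type mean is lowest in KO replicate 2 (-0.57) and IL-6-type means are lowest in WT replicates 5 and 6. The negative or weak class stays between -0.15 and 0.18.

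The upstream genes gave few calls. Of 20 tested genes of interleukin-6 family signalling, 1 fell (5%, against 0.767% of all genes called lower) and 0 rose, with 11 log2 fold changes above 0 and 9 below (median 0.13). That gene was Clcf1, a cytokine of the family, at 8.61, 14.8, 13.4 and 9.08 CPM in KO, against 9.25, 61.3 and 76.8 CPM (lowest, median and highest) in WT (log2 fold change -2.26, SE 0.47, edgeR adjusted p = 0.0477), and WT replicate 4 was the WT minimum. The call was kept in 1 of 10 fits with a library left out, the one without WT replicate 4, and its adjusted p was up to 0.148 in the others. The receptor genes Il6ra (log2 fold change 0.28, SE 0.19) and Il6st, which encodes gp130 (0.05, SE 0.15), the transcription factor gene Stat3 (-0.33, SE 0.20) and its feedback inhibitor Socs3 (0.41, SE 0.33) did not pass. Il6 was listed at 0 CPM in every KO library and at most 0.15 CPM in WT.

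In the list of interleukin-1, TNF and NF-kB signalling, 0 of 34 tested genes passed, 7 had log2 fold changes above 0 and 27 below, and the median was -0.44, against -0.02 over all genes. Nfkbia, the NF-kB inhibitor, averaged 31.4 ± 5.33 CPM in KO and 34.5 ± 4.83 CPM in WT. Of 19 acute phase transcription factors 0 passed. Cebpb was at 103 ± 24.2 CPM in KO and 167 ± 49.97 CPM in WT (log2 fold change -0.69, SE 0.23, edgeR adjusted p = 0.0991), and Cebpd at 17.5 ± 3.58 CPM in KO and 30.96 ± 7.94 CPM in WT (-0.82, SE 0.22, edgeR adjusted p = 0.0679). Both are C/EBP factors of the acute phase, and both passed in edgeR without WT replicate 4 (adjusted p = 0.0433 and 0.0231) and in DESeq2 with all libraries (adjusted p = 0.0417 and 0.0139). Among 26 other positive acute phase genes 1 fell, the metallothionein Mt2 (-1.98, SE 0.38, edgeR adjusted p = 0.044), and 0 rose. That is 3.85% called lower, against 0.767% of all genes, with 14 log2 fold changes above 0 and 12 below (median 0.02). Of 24 negative acute phase genes 0 passed, with Alb at -0.17 (SE 0.29) and Ttr at -0.07 (SE 0.20), all log2 fold changes. Of 15 glucocorticoid response genes 2 fell (13.3%, against 0.767% of all genes) and 0 rose, with 3 log2 fold changes above 0 and 12 below (median -0.35). The 2 were Tat, tyrosine aminotransferase (-1.57), and Sds, serine dehydratase (-2.38). With 1 library left out, the calls of Tat and Sds were kept in 1 of 10 fits (without WT replicate 4) and that of Mt2 in 2 of 10 (without WT replicate 2 or 4). Alb and Ttr turned to 0.10 and 0.06 without WT replicate 2.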

How the data were processed

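Poly(A) RNA of 4 KO and 6 WT livers was sequenced. The authors deposited raw read counts per gene symbol, 1 column per library. The tools named in the submitters' processing notes are STAR, HTSeq and DESeq2, with build mm10. Not given in the sources used here are their versions, the annotation and the strandedness, so reads of relatives and overlapping genes may have been lost or shared. All columns were used (0 left out), and same-group libraries differed far beyond sampling noise (chi-square per degree of freedom at least 23.2).

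KO was compared with WT by the quasi-likelihood test of edgeR (version 4.0.16 under R 4.3.3, with TMM, filterByExpr, robust prior, no covariate) on 13688 of 23056 genes, adjusted by Benjamini-Hochberg over all of them and called under 0.05. All 31 members passed the filter. SE is the log2 fold change over the square root of F. CPM uses TMM-scaled libraries, and TPM divides by the longest APPRIS principal transcript of GENCODE M21. Ratios and the share of counts were compared by two-sided exact permutation over 210 labelings, with a pseudocount of 0.5 CPM. The code was tested on simulated counts. Members, classes and lists were chosen with earlier results of these data known. Named genes were all members, Ifrd1, a panel of 9 (Il6ra, Il6st, Stat3, Socs3, Cebpb, Cebpd, Nfkbia, Alb, Ttr), up to 3 called genes of each list, and the 5 genes most correlated with each class mean, of which 1 is not reported here. Marker lists of 10 cell types were read as sums.

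Alternatives were RLE and upper-quartile scaling, other filters, DESeq2 1.42.0, limma-voom (limma 3.58.1), no robust prior, mitochondrial genes left out, relatives summed, a replicate block, a pseudocount of 5 CPM, classes without members that respond to both cytokines, and leaving out each library. Leaving out WT replicates 5 and 6 together was added after the data had been seen.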

Additional observations from a re-analysis of the deposited data

Results flagged for a closer look

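Within a group, 1 library stood far from the others (by Dixon's test of the gap to the nearest library over the range) in 10 of 74 groups of values looked at, where chance gives about 1 in 20. The 74 groups reuse the same libraries for genes that vary together, so no excess over that share can be read from this. In WT livers, replicate 3 was high for Saa1 (13586 CPM, next 7839), Saa2 (16997 CPM, next 10643), Apcs (1399 CPM, next 870) and Itih3 (2710.1 CPM, next 2283). WT replicate 2 was high for Agt (7100 CPM, next 1672) and Il1rn (5.75 CPM, next 2.40). In KO livers, replicate 1 was high for Fgb (13451 CPM, next 10590.4) and Hpx (13459 CPM, next 11425). KO replicate 2 was low for Saa3 (23.3 CPM, next 57.7) and KO replicate 3 for Il1rap (84.2 CPM, next 97.4). The causes were not tested.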

How the results depend on the processing

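The 0 calls among members held in edgeR under every scaling, filter, prior, summing and block setting, leaving out WT replicates 5 and 6 together, and leaving out any single library but WT replicate 4. Over single libraries left out, members called higher ran from 0 to 3, members called lower from 0 to 5, and all genes called from 0 to 2893. DESeq2 called 5 members lower and 1618 genes, limma-voom 318 genes, the replicate block 1 gene, and the fit without WT replicates 5 and 6 called 4 genes. Class medians ran from -0.19 to 0.19 (IL-1-type), -0.11 to 0.11 (IL-6-type) and 0.31 to 0.42 (negative or weak) over single libraries left out. The negative or weak median was 0.26 with the block and 0.26 without WT replicates 5 and 6. These settings are not independent. Replicate numbers 5 and 6 exist only in WT, so the block leaves those libraries no weight in the KO contrast. Ratio differences kept their sign, with ranges of 0.03 to 0.13 (Saa2 to Saa1), 1.18 to 1.79 (Saa3 to Saa1), 0.62 to 0.90 (Orm2 to Orm1), 0.16 to 0.45 (Fga to Fgb) and -0.32 to -0.18 (Fgg to Fgb); the share of counts, whose sign turned, differed by -0.59 to 1.08 percentage points.

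Members whose sign turned had log2 fold changes under 0.1 in size. Saa1 was 0.0296 with upper-quartile scaling and 0.0233 with relatives summed, and Lcn2 0.0213 in limma-voom. With the block Saa2 was -0.0104, Fga -0.26, Cp -0.26 and Lrg1 -0.15. Without WT replicates 5 and 6, Saa2 was -0.0629, Fga -0.30, Cp -0.25, Lrg1 -0.17 and Itih4 -0.0092. Over single libraries left out the ranges were -0.19 to 0.19 (Saa1), -0.0758 to 0.2449 (Saa2), -0.11 to 0.25 (Fga), -0.23 to 0.14 (Lcn2), -0.11 to 0.14 (Cp), -0.0602 to 0.17 (Lrg1), -0.0615 to 0.0852 (Itih3) and -0.0795 to 0.15 (Itih4). Among other named genes, ranges were -0.0265 to 0.13 (Il6st), -0.28 to 0.0974 (Alb) and -0.14 to 0.0610 (Ttr), and Ifrd1 kept its call in 4 of 10 fits with a library left out. Clcf1 was not called with no filter (adjusted p = 0.0720) or by limma-voom (0.0578), nor Sds with no filter (0.0660). With the block the adjusted p was 0.124 for Ifrd1, 0.145 for Clcf1, 0.136 for Mt2, 0.142 for Sds and 0.160 for Tat. The causes were not tested.

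Replicate numbers pair nothing in the labels. Deviations of same-numbered libraries correlated at 0.18, 0.07, -0.03 and -0.01, and 4 of 8 libraries correlated best with their own number. Depth limits Il1rn and Il6, which had few reads.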

Other observations

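The 5 genes outside the list whose log2 level had the highest Pearson correlation with a class mean over the 10 libraries were, for the IL-1-type class, Raly (0.94), Zmpste24 (0.93), Gm8730 (0.92), Cldnd1 (0.92) and Larp7 (0.92). For the IL-6-type class they were Lcorl (0.96), Rnf144a (0.93), Wars (0.93), Serinc1 (0.92) and Pelo (0.92), and those given for the negative or weak class are Commd5 (0.89), Atp6v0d1 (0.89), Prxl2b (0.88) and Crybb3 (0.88). These values were picked as the highest among all genes tested, across libraries of both genotypes that share scaling and depth, and are a description only.

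Among cell type markers 1 gene passed, Fcgr2b of the endothelial list, named after its values were seen. It averaged 26.2 ± 7.57 CPM in KO, against 10.05, 12.8 and 16.4 CPM (lowest, median and highest) in WT (log2 fold change 1.03, SE 0.21, edgeR adjusted p = 0.044), and the call was kept in 2 of 10 fits with a library left out (without WT replicate 2 or 4). The endothelial list had 11 tested genes, 7 with log2 fold changes above 0 and 4 below (median 0.29). The neutrophil list had 5 tested genes, all with log2 fold changes below 0 (median -2.24), and none passed. S100a8, also named after its values were seen, was at 0.845 to 3.39 CPM in KO and at 49.1 CPM in WT replicate 2 and at most 15.9 CPM in the other WT livers. Summed biliary markers were 67.1 to 85.1 CPM in KO and 66.5 to 316 CPM in WT, adipose markers 588 to 799.9 CPM in KO and 581 to 1558 CPM in WT, stellate markers 217 to 233 CPM in KO and 146 to 289 CPM in WT, and endothelial markers 240 to 371 CPM in KO and 194 to 354 CPM in WT. The adipose sum lay almost wholly in Car3, Cidec, Plin4 and Fabp4, and Car3 alone was at 1256 CPM in WT replicate 6. Adipoq, Plin1, Retn and Adig were at most 0.387 CPM in any library, so this sum is a poor measure of adipose tissue. Kupffer cell markers summed to 193 to 246 CPM in KO and 203 to 289 CPM in WT, of which C6 alone was 159 to 190.2 CPM in KO and 76.6 to 204 CPM in WT. Mesothelial markers summed to 5.16 to 14.6 CPM in KO and 1.44 to 24.7 CPM in WT, and lymphocyte markers to 2.38 to 4.01 CPM in KO and 1.26 to 3.63 CPM in WT. Their part in the values of the acute phase genes was not tested.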
